A study of Bos taurus with 9 samples.

Results

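PAG11 and GATA5 are described here across 9 RNA sequencing libraries of bovine blastocysts, early embryos made of an outer trophectoderm and an inner cell mass around a fluid-filled cavity. They are 2 of the 47 genes in the deposited series table, found there by gene name. The table presents its genes as differentially expressed between these same libraries, so both genes were selected on the levels given below, and those levels are a description with no test. The AKG-treated group held 3 libraries of blastocysts that were vitrified (solidified as a glass in the cold), warmed and given α-ketoglutarate (AKG), a metabolite of the tricarboxylic acid cycle. The AKG-free group held 3 libraries of blastocysts vitrified and warmed with no AKG, and the control group held 3 libraries labelled only as control. Every library is labelled female embryo, with no embryo age, strain or culture stated, and the sources used here do not state the dose and timing of AKG. The labels name no separate embryo batches for the libraries of a group, so the spread between libraries may be partly technical. They also do not state how many embryos went into a library. The depositors' name for the series data includes scRNA-Seq (single-cell RNA sequencing), and whether a library came from a single cell or many is not stated. Where a library holds many cells, fewer cells of a type and less RNA per cell cannot be told apart. Both genes differed most in AKG-free libraries, in opposite directions: PAG11 was highest there and GATA5 had no reads there.

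Pregnancy-associated glycoproteins (PAGs) are secreted proteins of the aspartic protease family that ruminant trophoblast makes, and several of them are measured in blood or milk to diagnose pregnancy in cattle. PAG11 belongs to the older branch of the family, together with PAG2. GATA factors are zinc finger transcription factors that bind DNA at a GATA core. GATA5 is known from mouse and zebrafish for roles in heart and gut endoderm, and in mouse its relatives GATA4 and GATA6 act in the primitive endoderm, the blastocyst layer called hypoblast in cattle.

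PAG11 (ENSBTAG00000022759) lies on chromosome 29 from 39438824 to 39456485, minus strand, and GATA5 (ENSBTAG00000047944) lies on chromosome 13 from 54799166 to 54809284, plus strand, by the coordinates of the series table (genome build not stated in the sources used here). Each is annotated as a protein coding gene with 1 transcript. Both matched the RefSeq gene table of assembly ARS-UCD2.0 by Entrez number and symbol. By order along the chromosome in that table, the nearest numbered PAG symbols on either side of PAG11 are PAG6 and PAG8. Genes with other names were left out of that order. PAG11 is 1 of 19 genes with a numbered PAG symbol on its chromosome. The stretch from the first to the last of these genes holds 62 genes, of which 31 are protein coding and 28 are pseudogenes. PAG family members are similar in sequence and reads could have been divided among them, so the PAG11 level is uncertain in that respect. GATA5 is 1 of 6 GATA genes in the table, and no other gene there overlaps PAG11 or GATA5.

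Levels are given in FPKM, fragments per length of gene and per mapped fragments, and are the authors' deposited values. In AKG-treated libraries 1, 2 and 3, PAG11 stood at 1.36, 17.1 and 2.90 FPKM. In AKG-free libraries 1, 2 and 3 it stood at 42.2, 67.9 and 24.0 FPKM. Control libraries 1 and 3 had 1.52 and 1.44 FPKM, and control library 2 had no PAG11 reads. All 3 AKG-free libraries were therefore above all 6 others, AKG-treated library 2 came next, and the other AKG-treated libraries were near the controls that had reads.

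The deposited counts behind these levels were 98, 1336 and 236 in AKG-treated libraries 1, 2 and 3. AKG-free libraries 1, 2 and 3 had 3702, 5456 and 2223 counts, and control libraries 1, 2 and 3 had 132, 0 and 104. Relative sequencing depth, taken from the ratio of count to FPKM, ran only from 0.793 to 1.17 over the 9 libraries. Control library 2 was the shallowest. At the mean level of the other 2 controls it would still have held 92.9 PAG11 counts at its own depth. The 95% Poisson interval of the smallest PAG11 count above 0, in AKG-treated library 1, was 79.6 to 119, narrow beside the spread between libraries. Such intervals cover counting error only, since amplified reads are not independent molecules.

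**Figure D1:**
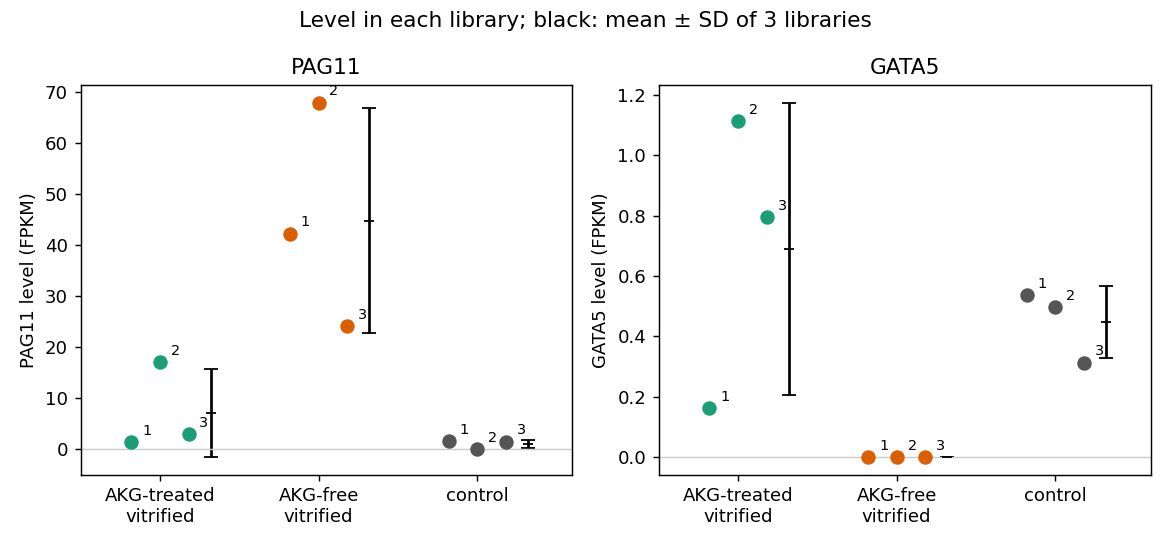
Level of PAG11 (left) and GATA5 (right) in FPKM in each library, with library numbers beside the points; black bars give the mean and SD of 3 libraries. PAG11 is highest in the 3 AKG-free libraries (24.0 to 67.9 FPKM), and GATA5 is at 0 in the same libraries.

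Averaged over 3 libraries, PAG11 was at 44.7 ± 22.0 FPKM (SD, n = 3) in AKG-free blastocysts and 0.984 ± 0.853 FPKM (SD, n = 3) in controls, 45.5-fold higher by means. That fold was 30.3 without control library 2, which had no reads, and 33.7 to 62.3 without any other library of these groups. The lowest AKG-free library was 15.9-fold above the highest control. On the log2(FPKM + 1) scale the difference, AKG-free minus control, was 4.52 (SE 0.61). Leaving out any 1 of these 6 libraries gave 4.09 to 4.90. On counts scaled to depth the difference was 7.08, a scale that sets more weight on the control library at 0. Over all 47 listed genes, 31.9% had every AKG-free library above every control. The list was chosen on such differences, so that share is no benchmark for PAG11.

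PAG11 averaged 7.10 ± 8.65 FPKM in AKG-treated and 44.7 ± 22.0 FPKM in AKG-free blastocysts (SD, n = 3 each), a 6.30-fold lower mean with AKG. AKG-treated library 2 sets the size of this fold: without it the AKG-treated mean was 2.13 FPKM, 21.0-fold lower than AKG-free, and leaving out any other library of these groups gave 4.48-fold to 7.75-fold. The log2 difference, AKG-treated minus AKG-free, was -2.94 (SE 0.98), and -3.80 to -2.33 with 1 library left out. These groups came close to each other: AKG-free library 3 was only 1.41-fold above AKG-treated library 2. Every AKG-treated library was below every AKG-free library for 25.5% of the listed genes, PAG11 among them. The coefficient of variation of PAG11 was 122% among AKG-treated libraries, which spanned a 12.6-fold range, 49.3% among AKG-free libraries, which spanned a 2.83-fold range, and 86.7% among controls.

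Against controls, PAG11 averaged 7.10 ± 8.65 FPKM in AKG-treated blastocysts and 0.984 ± 0.853 FPKM in control blastocysts, 7.22-fold higher by means (4.81-fold without control library 2), but the libraries overlapped. AKG-treated library 2 alone held 80.0% of the PAG11 counts of its group. The other 2 AKG-treated libraries averaged 2.13 FPKM, 2.16-fold above the control mean. That mean includes control library 2, which had no reads. Control libraries 1 and 3 averaged 1.48 FPKM, and AKG-treated library 1, at 1.36 FPKM, was below both. The log2 difference, AKG-treated minus control, was 1.59 (SE 0.99) with all libraries and 0.73 without AKG-treated library 2. On counts scaled to depth it was 3.75, where the control library at 0 again weighs more.

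GATA5 was at a low level in every library that had reads of it. AKG-treated libraries 1, 2 and 3 held it at 0.161, 1.11 and 0.795 FPKM, from 21, 154 and 114 counts. AKG-free libraries 1, 2 and 3 had 0 counts each. Control libraries 1, 2 and 3 had 0.536, 0.497 and 0.312 FPKM, from 83, 56 and 40 counts. All 6 libraries outside the AKG-free group thus had GATA5 reads, and none of the 3 AKG-free libraries did.

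AKG-free libraries 3 and 1 were the deepest of the 9, at 1.17 and 1.11 times the mean depth. At the control mean level, AKG-free libraries 1, 2 and 3 would have held 69.9, 64.1 and 73.8 GATA5 counts. Even at the level of AKG-treated library 1, the lowest with reads, they would have held 25.1, 23.0 and 26.5. A count of 0 allows up to 3 counts in a library by a one-sided 95% Poisson limit (3.69 by the two-sided interval used above), and 3 counts are 0.0193, 0.0210 and 0.0182 FPKM in AKG-free libraries 1, 2 and 3.

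GATA5 averaged 0.449 ± 0.120 FPKM (SD, n = 3) in controls, 23.0-fold above that floor in AKG-free blastocysts. The floor covers counting error only, so this fold is no firm bound on the true difference. Control library 2 had 0 PAG11 counts where 92.9 would have been held at the level of the other controls. On the log2(FPKM + 1) scale, which compresses such low levels, the difference, AKG-free minus control, was -0.53 (SE 0.07). This SE comes from the spread of the controls alone, since all AKG-free libraries were at 0. With a pseudocount of 0.1 in place of 1 the difference was -2.43. On counts scaled to depth it was -5.97, and after centring each library on its median it was -1.65. Every AKG-free library was below every control for 14.9% of the listed genes, GATA5 among them.

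GATA5 averaged 0.690 ± 0.485 FPKM (SD, n = 3) in AKG-treated blastocysts, 35.4-fold above the floor of AKG-free blastocysts, with the same limit. The log2 difference, AKG-treated minus AKG-free, was 0.71 (SE 0.26), and 2.72 with a pseudocount of 0.1, 6.24 on counts scaled to depth and 1.36 after centring. Its SE comes from the spread of the AKG-treated libraries alone, as the AKG-free libraries had no reads. Every AKG-treated library was above every AKG-free library for 17% of the listed genes, GATA5 among them.

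Against controls, the GATA5 mean was 0.690 ± 0.485 FPKM in AKG-treated and 0.449 ± 0.120 FPKM in control blastocysts, 1.54-fold higher. The difference lies within the spread: AKG-treated library 1 was below all 3 controls and libraries 2 and 3 were above them. The log2 difference, AKG-treated minus control, was 0.18 (SE 0.27), was -0.0015 without AKG-treated library 2 and was -0.29 after centring, so it has no stable direction. Neither PAG11 nor GATA5 was among the 12.8% of listed genes with every AKG-treated library above every control, and 0% of listed genes had every AKG-treated library below every control.

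The levels of both genes can be set side by side because FPKM is per length. In AKG-treated libraries 1, 2 and 3 PAG11 stood at 1.36, 17.1 and 2.90 FPKM and GATA5 at 0.161, 1.11 and 0.795 FPKM, so library 2 was highest and library 1 lowest for both. In AKG-free libraries PAG11 varied from 24.0 to 67.9 FPKM while GATA5 stayed at 0 counts. In control library 2, which had no PAG11 reads, GATA5 was at 0.497 FPKM, close to the 0.536 FPKM of control library 1. AKG-treated library 2 held PAG11 at 17.1 FPKM, nearest of all to the AKG-free libraries, and also the highest GATA5 level of the 9. Across the 9 libraries r was -0.446, and across the 6 libraries outside the AKG-free group it was 0.720, both given as descriptions of libraries that share groups.

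**Figure D2:**
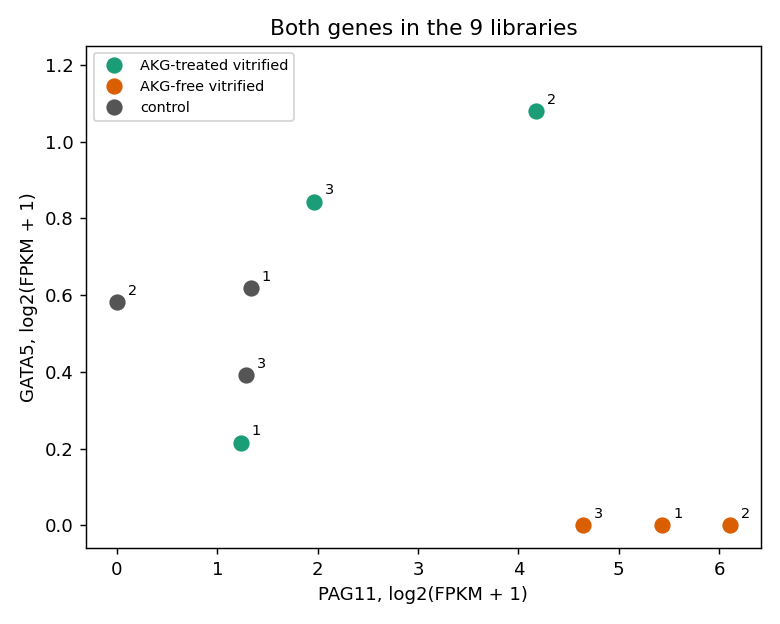
GATA5 against PAG11 in each of the 9 libraries, both as log2(FPKM + 1), with library numbers beside the points. The AKG-free libraries lie at 0 for GATA5 and to the right for PAG11, and AKG-treated library 2 is at 4.17 for PAG11 and 1.08 for GATA5.

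Within the list, PAG11 had the highest AKG-free minus control difference in log2(FPKM + 1) of the 47 genes, and also the highest AKG-treated minus control difference. NPSR1, lower in both, differed more in size, by -6.01 and -4.00. In the AKG-treated minus AKG-free comparison PAG11 was the 3rd from the lowest. GATA5 was the 9th from the lowest in AKG-free minus control and the 9th from the highest in AKG-treated minus AKG-free, positions that its low level limits on this scale. The median over all 47 genes was 0.69 for AKG-free minus control and -0.69 for AKG-treated minus AKG-free, and the AKG-free group mean ranked first of the 3 groups for 38 genes and last for 9. In level, PAG11 ranked 20, 8 and 16 of the 47 genes in AKG-treated libraries 1, 2 and 3, 5, 7 and 10 in AKG-free libraries 1, 2 and 3, and 19 and 18 in control libraries 1 and 3. Its rank in AKG-treated library 2 was thus above that in AKG-free library 3.

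**Figure D3:**
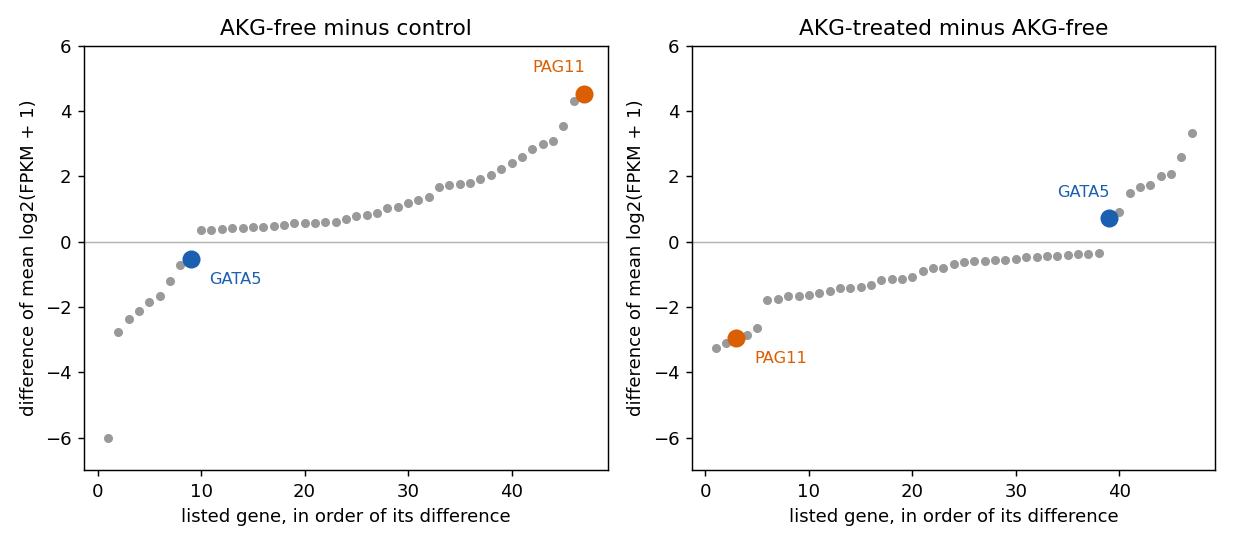
Difference of mean log2(FPKM + 1) for each of the 47 listed genes, in rising order, for AKG-free minus control (left) and AKG-treated minus AKG-free (right). PAG11 is at 4.52 and -2.94 and GATA5 at -0.53 and 0.71, each on opposite sides of 0 in panels that share the AKG-free libraries.

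For 10 of the 47 genes, PAG11 included, all 3 AKG-free libraries were above all 6 others, and for 6, GATA5 included, they were below all 6 others. GATA5 was 1 of 4 genes with 0 counts in all AKG-free libraries, beside NPSR1, TPRG1 and ENSBTAG00000053922. Of these 4, only GATA5 and TPRG1 had reads in all 6 other libraries. TPRG1, the tumor protein p63 regulated 1 gene, averaged 0.909 ± 0.229 FPKM in AKG-treated and 0.695 ± 0.452 FPKM in control blastocysts, in both groups above GATA5. For 22 listed genes, at least 1 AKG-free library had reads and all controls had 0 counts. PAG11 was not one of them, as control libraries 1 and 3 had 132 and 104 counts.

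The listed genes most like PAG11 over the 9 libraries, by Pearson correlation of log2(FPKM + 1), were FKBP7, a protein folding enzyme of the endoplasmic reticulum (r = 0.869), MANEA, a Golgi mannosidase (r = 0.860), the chemokine CCL27 (r = 0.838), the small heat shock protein CRYAB (r = 0.833) and ENSBTAG00000050611 (r = 0.789). Every listed gene is extreme in the AKG-free group, which enters these values. Over the 6 libraries outside that group r was 0.727 for FKBP7, 0.643 for MANEA and 0.874 for ENSBTAG00000050611, but 0.373 for CRYAB and -0.152 for CCL27. Those 6 libraries are AKG-treated and control, so differences between these groups enter r as well. FKBP7 averaged 5.39 ± 0.185 FPKM in AKG-treated and 3.05 ± 1.37 FPKM in control blastocysts. PAG11 spanned a 12.6-fold range among the AKG-treated libraries. Over the same 6 libraries GATA5 had r = 0.720 with PAG11. CRYAB and CCL27 had no reads in controls, where PAG11 had reads in 2 of 3 libraries. ENSBTAG00000050611 averaged 24.7 ± 6.79 FPKM in AKG-treated, 120 ± 105 FPKM in AKG-free and 9.39 ± 3.67 FPKM in control blastocysts. PAG11, FKBP7, MANEA, CCL27 and CRYAB had the same order of group means. Unlike PAG11, ENSBTAG00000050611 had AKG-free and AKG-treated libraries that overlapped. The gene least like PAG11 was ROGDI, a leucine zipper protein, with r = -0.953 over 9 and -0.831 over 6 libraries.

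The listed genes most like GATA5 were CARMIL1, a regulator of actin capping (r = 0.801), ENSBTAG00000038893 (r = 0.772), ENSBTAG00000053922 (r = 0.712), SYCP2, a protein of the meiotic synaptonemal complex (r = 0.686), and TPRG1 (r = 0.680). Over the 6 libraries outside the AKG-free group none of the 5 exceeded 0.346, the value of CARMIL1, and TPRG1 was at -0.0241. CARMIL1 averaged 4.55 ± 0.987 FPKM in AKG-treated, 0.654 ± 0.306 FPKM in AKG-free and 5.31 ± 3.22 FPKM in control blastocysts. These genes thus share with GATA5 a low in the AKG-free group, while their Pearson r with it was low among the other libraries. By rank, the correlation over the 9 libraries was 0.915 for ENSBTAG00000038893 and 0.797 for CARMIL1. It was 0.611 to 0.695 for the other genes. Rank order outside the AKG-free group was not compared.

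**Figure D4:**
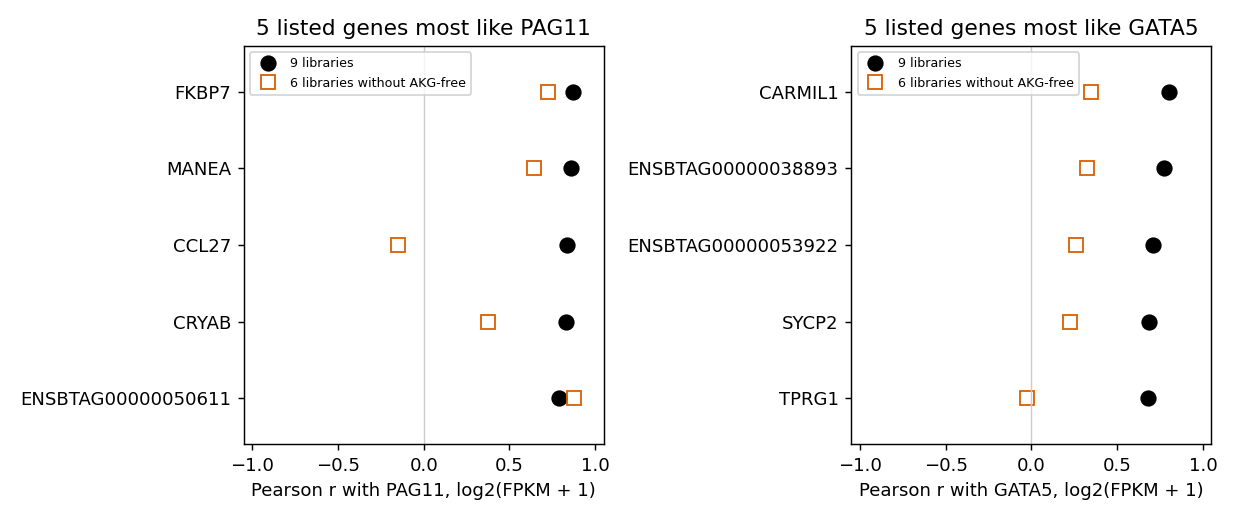
Pearson r of log2(FPKM + 1) with PAG11 (left) and GATA5 (right) for the 5 listed genes most like each, over 9 libraries (filled circles) and over the 6 libraries outside the AKG-free group (open squares). For GATA5 all 5 genes drop to 0.346 or below without the AKG-free libraries. With PAG11, FKBP7, MANEA and ENSBTAG00000050611 remain at 0.643 or above. The 6 libraries are AKG-treated and control, so differences between these groups enter the second r.

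The table was also searched for 7 fixed lists of lineage and accompanying cell genes. GATA5 was the only listed member of 25 hypoblast and endoderm genes. A list of the symbols PAG1 to PAG25, which runs past the annotated family and includes numbers with no gene in the RefSeq table, matched only PAG11. The symbol PAG1 lies on chromosome 14 there, apart from the numbered PAG genes of chromosome 29, and whether it belongs to the family was not checked. Of 27 other trophectoderm genes, among them CDX2, GATA3 and the interferon tau genes, 0 were in the table, as were 0 of 19 epiblast, 0 of 12 cumulus, 0 of 10 blood and 0 of 8 sperm genes. The 47 listed genes are 0.127% of the 37063 genes in the RefSeq table, a share at which the longest list would hold 0.0342 genes, so these zeros carry no information about the lists. Genes outside the table were not analysed here, and whether trophectoderm or hypoblast markers as a whole moved with PAG11 or GATA5 was not tested.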

How the data were processed

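The single-library tables hold FPKM as deposited by the authors, per the file headers. The series table repeats these values, identical for all 9 libraries, and adds each gene's count as deposited by the authors. The submitters' processing notes name HISAT2 2.0.4, cutadapt 1.9, edgeR and StringTie 1.3.4d without their roles. The sources used here state no build, annotation or strand use. Relative depth came from the ratio of count to FPKM over 13 genes with at least 100 counts in every library, whose largest deviation was 0.733%; total depth is unknown, and the counts of a 47-gene table are not a depth. Differences are of group means of log2(FPKM + 1), which understates changes of low genes, with SE from the 2 group SDs. A group at 0 was set at a floor of 3 counts per library. Members and gene lists were chosen with earlier results of these data known. Besides both members, the text names the 5 genes with the highest Pearson r with each and, chosen after their values were seen, those least like PAG11, on the same chromosome or with 0 counts in all AKG-free libraries. The alternatives were a pseudocount of 0.1, counts scaled to depth, centring, a filter at a mean of 0.5 FPKM and leaving out each library. The depth, difference and overlap steps were tested on simulated data with no group at 0. The floor and the expected counts were not tested in that way. Python 3.11.15, numpy 2.4.6, pandas 2.3.3, scipy 1.17.1 and matplotlib 3.10.9 were used. No gene sequences were used here.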

Additional observations from a re-analysis of the deposited data

How the results depend on the processing

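PAG11 kept its direction in all 3 comparisons under the alternatives tried. AKG-free minus control, 4.52, became 6.03 with a pseudocount of 0.1, 7.08 on counts scaled to depth and 3.41 after centring, and ran from 4.09 to 4.90 with 1 library left out. AKG-treated minus AKG-free ran from -3.80 to -2.33 with 1 library left out. AKG-treated minus control, 1.59, became 3.75 on counts scaled to depth and ran from 0.73 (without AKG-treated library 2) to 2.20 (without AKG-treated library 1). GATA5 kept its direction in both comparisons with AKG-free libraries: AKG-free minus control, -0.53, became -2.43 with a pseudocount of 0.1, -5.97 on counts scaled to depth and -1.65 after centring, and ran from -0.60 to -0.49 with 1 library left out. AKG-treated minus AKG-free, 0.71, became 2.72, 6.24 and 1.36 under the same settings and ran from 0.53 to 0.96. AKG-treated minus control, 0.18, turned to -0.29 after centring and ran from -0.0015 (without AKG-treated library 2) to 0.43; the cause was not tested. Centring takes most genes as unchanged, which does not hold in a list of genes chosen as differing. Counts of listed genes whose libraries do not overlap changed by at most 1 with the filter at a mean of 0.5 FPKM. GATA5 (mean 0.379 FPKM over 9 libraries) does not pass this filter. Only 29 of the 47 genes pass it, so the shares are larger with it. Without the filter, 22 of 47 genes did not overlap for AKG-free against control, and 21 of 29 with it. For AKG-treated against AKG-free these were 20 of 47 and 19 of 29. The low counts of GATA5 (at most 154 in a library) limit the precision of its levels.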

Other observations

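GATA5 was 1 of 3 listed genes on chromosome 13, with SYCP2 (56624611 to 56685728) and GNAS (57465320 to 57532635), which encodes a stimulatory G protein subunit. The 3 genes lie within 2.73 Mb, and in each of them the AKG-free group had the lowest mean of the 3 groups. Only 9 of the 47 listed genes had that order, and these 9 lie on 6 chromosomes. In AKG-treated libraries 1, 2 and 3 SYCP2 stood at 2.56, 5.64 and 0.488 FPKM, against 0.128, 0.0128 and 0.409 FPKM in AKG-free libraries 1, 2 and 3, and 1.71, 1.64 and 1.67 FPKM in control libraries 1, 2 and 3. GNAS levels in AKG-treated libraries 1, 2 and 3 were 17.7, 2.95 and 38.5 FPKM, against 2.86, 0.817 and 0.834 FPKM in AKG-free libraries, and 2.65, 90.6 and 10.8 FPKM in control libraries. GATA5 and SYCP2 were highest in AKG-treated library 2, where GNAS was lowest of the AKG-treated libraries, so the neighbours did not share an order within that group. The grouping was noticed after the values were seen and was not tested.

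PAG11 was 1 of 3 listed genes on chromosome 29. The other 2, ENSBTAG00000009197 and ENSBTAG00000039825, lie far from the PAG genes, at 5684573 to 5690844 and 5865962 to 5875027. Both had reads in AKG-free library 2 only, at 1.95 and 2.29 FPKM, the library in which PAG11 was highest.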
